A study of Drosophila melanogaster with 7 samples.

Results

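Cytochrome P450 enzymes of the larval airway are the subject here: 85 genes of the Cyp nomenclature, read in the trachea of *Drosophila melanogaster* larvae with and without an activated JAK kinase. They were taken as every gene whose deposited name starts with Cyp and a digit, which gave 86 of 17697 named genes. One of these, Cyp1, is a cyclophilin, a peptidyl-prolyl isomerase and no P450, and was set apart. The remaining genes were grouped by the family number in their names into Cyp4 with 22 genes, Cyp6 with 25, Cyp9 with 6, Cyp12 with 7, Cyp28 with 4, and 21 genes of other families. The naming rule used no measured value, although the members were chosen with earlier results of these data known.

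P450s are heme enzymes that insert 1 oxygen atom into a substrate and take their electrons from a partner protein. In insects the microsomal enzymes, which include the Cyp4, Cyp6, Cyp9 and Cyp28 families, receive them from the reductase Cpr. The mitochondrial ones, such as Cyp12 and Cyp301, receive them through ferredoxin and its reductase. Family members are known for clearing plant toxins and insecticides, for the synthesis and breakdown of the moulting hormone ecdysone, and for making the waxy hydrocarbons of the cuticle. The trachea is an epithelium that secretes a cuticle of its own and renews it at each moult.

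RNA sequencing covered 4 control and 3 HopCA libraries of third-instar trachea, labelled as biological replicates, and p-values measure the spread between these libraries. Hop.CA is a constitutively active form of hopscotch, the JAK kinase of the fly. In the strain, btl-Gal4, a driver of the tracheal cells, acts on UAS-GFP and UAS-Hop.CA, and the temperature-sensitive inhibitor tub-Gal80ts holds Gal4 back at the low temperature. The labels give this same strain to all 7 libraries, although the titles call the controls wildtype. Controls were kept at 18 °C. HopCA larvae grew at the same temperature until L2 and then spent 18 hours at 29 °C. Hop.CA and the warm shift therefore cannot be told apart, and the number of animals behind each library is not stated.

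Each library held 16795748 to 20455268 gene reads, and values below are these reads in CPM, always in the order control 1 to 4 and HopCA 1 to 3. They were scaled to each library's total over the tested genes, adjusted by its TMM normalization factor. The targeted gene hop read 38.4, 43.3, 40.1 and 44.0 CPM in the controls and 1444, 1593 and 1342 CPM in HopCA, a log2 fold change of 5.14 (adjusted p = 2.69e-07). The 9 tracheal markers summed to 10762 to 11572 CPM in the controls and 15638 to 16372 CPM in HopCA, with 3 called higher and 1 lower. Most of that sum was verm (5844 CPM in the control mean and 8723 CPM in the HopCA mean) and serp (3207.5 and 5373 CPM), both called higher. The median log2 fold change of the 9 markers was -0.25, and btl, the one called lower, was at -0.63 (adjusted p = 0.0138). Markers of other tissues were present too. The 12 muscle genes summed to 13267, 9910, 16321 and 20633 CPM in the controls and to 3299, 10107 and 4383 CPM in HopCA, and 8 of them were called lower. The 10 fat body genes summed to 6709, 1957, 5004 and 2254 CPM in the controls and 2444, 4686 and 2568 CPM in HopCA, with none called and the adult yolk gene Yp1 at or near 0. The 10 imaginal disc genes summed to 64.6 to 143 CPM in the controls and 22.9 to 43.5 CPM in HopCA, and 5 were called lower. The 9 Malpighian tubule genes summed to 106 to 120 CPM in the controls and 99.3 to 113 CPM in HopCA, with 1 called lower and 4 below 1 CPM throughout. Nearly all of that sum was Best2 (96.2 to 114.6 CPM). Uro was at 1.87 CPM in the control mean and 0.370 CPM in the HopCA mean (log2 fold change -2.32, adjusted p = 0.102). NaPi-T, the one called, was at 2.42 and 0.693 CPM (-1.79, adjusted p = 0.0176). Of 14 midgut genes 10 stayed below 1 CPM in every library, and none was called. Their sum was 40.1 CPM in control 1 and 0.816 to 4.91 CPM in the other libraries. The part of these tissues in the P450 changes was not tested. In bulk tissue, fewer cells of a type and less RNA per cell cannot be told apart.

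Control 2 stood apart for the P450s. Among the 65 P450 genes with enough reads to be tested it was the lowest control for 38, or 58.5%, against 27.0% of all tested genes. Control 2 also had the lowest fat body and muscle sums of the 4 controls. The part of either tissue in the low P450 values of control 2 was not tested. Without control 2, 26 of the 27 called P450s were called again, Cyp4g1 was lost, and 6 were added, namely Cyp28a5, Cyp310a1, Cyp6w1, Cyp6a21 and Cyp4aa1 as lower and Cyp6a20 as higher.

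The airway carried a broad P450 repertoire at modest levels. On the deposited RPKM scale, which accounts for exon length, 52 of the 85 genes averaged at least 1 RPKM over the 7 libraries and 24 at least 10 RPKM. Cyp28a5 led with 186 RPKM, which ranked 411 among 12377 genes with exon reads, and it alone took 18.0% of all P450 CPM. The Cyp28 family is known from *Drosophila mettleri*, a desert fly, for responding to cactus alkaloids. After it came Cyp9f2 at 64.6 RPKM, the mitochondrial Cyp12e1 at 51.7, Cyp313b1 at 49.0 and Cyp318a1 at 46.0. Cyp9f2 was above the other 3 in every library, and Cyp12e1 was above Cyp318a1 in every library, whereas the place of Cyp313b1 changed from library to library. Over all 7 libraries, and so with the group difference included, their SDs were 16.3, 16.9, 11.4 and 17.9 RPKM. The 10 genes of highest CPM held 61.0% of the P450 reads.

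Cyp28a5 read 418, 160, 448 and 383 CPM in the controls and 268, 366 and 283 CPM in HopCA. The HopCA libraries lay inside the control range, which control 2 opened at its low end, and the log2 fold change was -0.21 ± 0.337 (SE) with an adjusted p of 0.675. Without control 2 it was called lower (-0.45, adjusted p = 0.0442). Cyp9c1, at 40.3 RPKM, had the smallest relative spread over the libraries among the 10 of highest RPKM. It read 72.5, 63.9, 77.4 and 72.2 CPM in the controls and 73.0, 73.1 and 64.1 CPM in HopCA, a log2 fold change of -0.03 (adjusted p = 0.837). Cyp9c1 lies inside CG13594 and CR43787, and only 4.2% of its reads were unique, so its level is uncertain.

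At the other end, 20 genes did not pass the filter on read counts and were not tested, and 19 of these stayed below 1 CPM in every library. The exception was Cyp313a2, with 7.497 CPM in control 3, 0 to 0.0486 CPM in the other controls and 0.152 to 0.476 CPM in HopCA. Cyp12d1-d had no read in any library, where 3 reads would be 0.147 to 0.179 CPM. Its neighbour Cyp12d1-p is a near-identical copy, so how reads were shared between them is uncertain. Cyp6a15Psi and Cyp6t2Psi, annotated as pseudogenes, have no exons in the tables, and both were among those not tested.

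More P450 genes fell than rose in HopCA. Of the 65 tested, 22 were called lower, 5 higher and 38 neither, at a Benjamini-Hochberg adjusted p under 0.05 in edgeR's quasi-likelihood test over all 9457 genes. The lower calls were 33.8% of the tested P450s, where 15.1% of all tested genes were called lower. The higher calls were 7.69%, where 16.4% of all genes were called higher. In either direction 41.5% of the P450s were called, beside 31.5% of all genes. The groups did not overlap for 29 of the 65 P450s, or 44.6%, close to the 43.3% of all genes.

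Among the called genes 13 fell at least 2-fold and 3 rose at least 2-fold. The median log2 fold change of the tested P450s was -0.43, beside -0.01 for all genes, and 46 of the 65 values lay below 0 (70.8%, against 50.7% of all genes). A fit with the mean log2 CPM of the muscle markers as a covariate called 5 P450s lower and 4 higher, with a median of 0.021. In that fit 7 of the 27 called genes remained: Cyp4d21, Cyp301a1, Cyp9h1, Cyp312a1, Cyp12e1, Cyp6d4 and Cyp6v1. The muscle markers themselves differed between groups, with 8 of 12 called lower in HopCA. Covariate and group therefore overlap, and this fit cannot tell them apart. The share of all genes called in it is not given here. Without control 2, 27 genes were called lower and 5 higher.

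**Figure D1:**
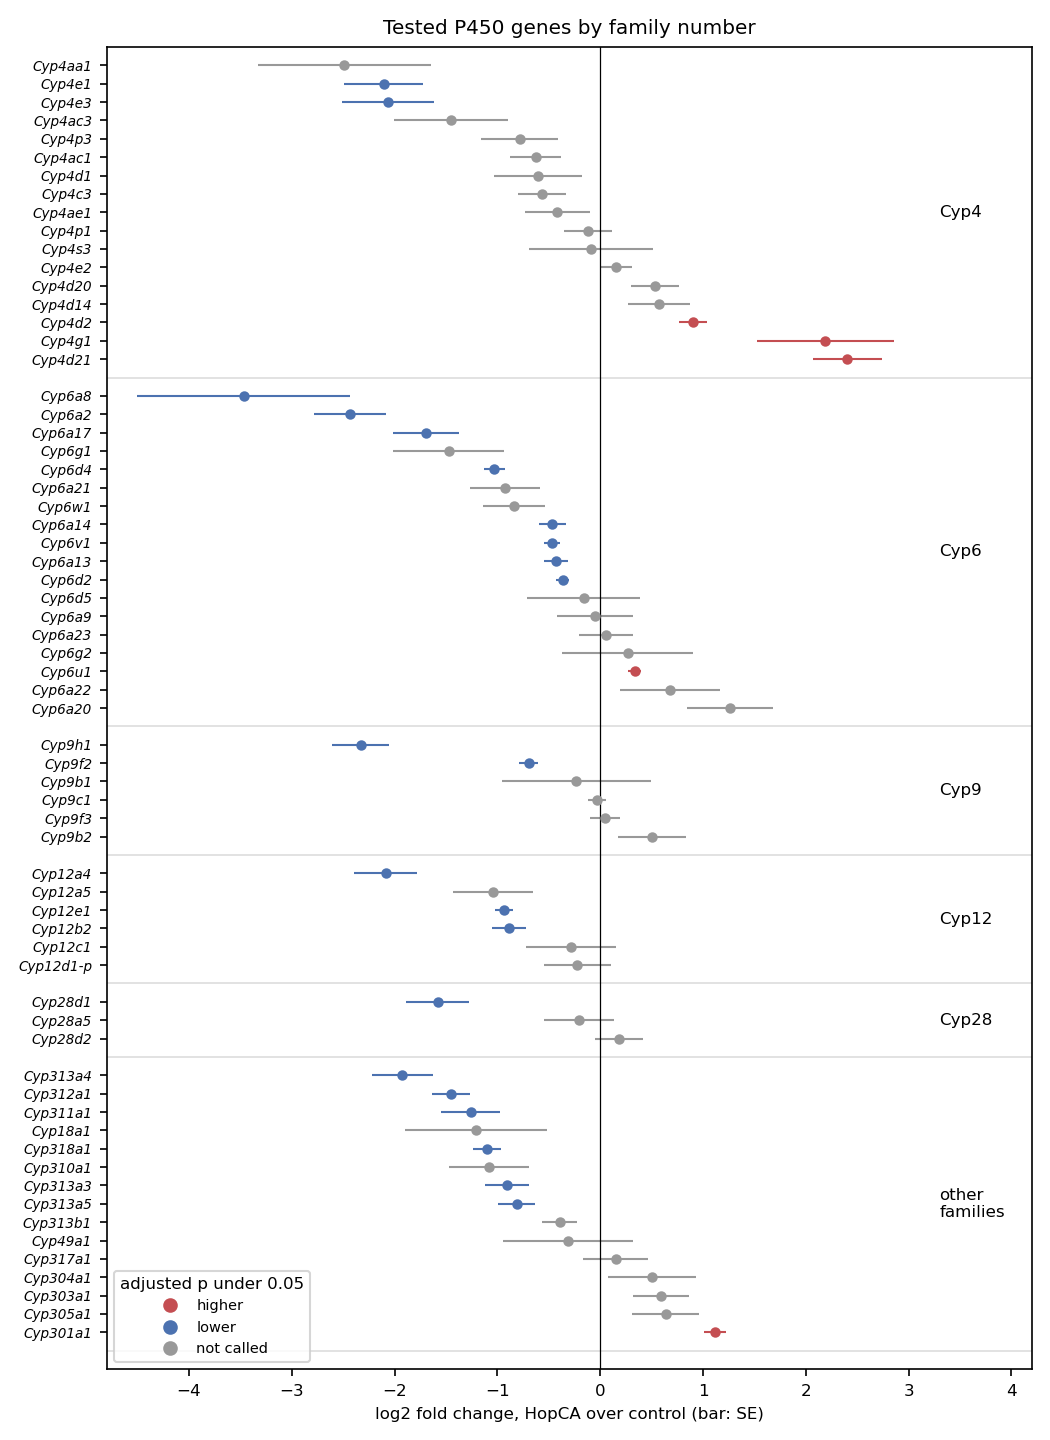
Log2 fold change of HopCA over control (x axis) for each tested P450 gene (y axis), grouped by family number, with bars of 1 SE from the edgeR fit. Red points were called higher, blue points lower and grey points neither; the 6 Cyp12 genes all lie below 0, and the 2 highest values, 2.41 and 2.19, are those of Cyp4d21 and Cyp4g1.

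Summed reads of the whole family overlapped between groups, at 2077, 1626, 2226 and 1944 CPM in the controls and 1676, 1823 and 1563 CPM in HopCA. The family numbers moved in different ways below this total. The Cyp4 sum was 262, 207, 375 and 312 CPM in the controls and 495, 459 and 379 CPM in HopCA, with every HopCA library above the controls. That separation was narrow, at 375 CPM in control 3 and 379 CPM in HopCA 3. Each of the 3 Cyp4 genes called higher differed by more than this gap between these libraries. Cyp4g1 read 71.5 and 92.1 CPM there, Cyp4d21 21.2 and 81.7 CPM, and Cyp4d2 7.14 and 13.5 CPM. Without Cyp4g1 the sums were 250, 192, 303 and 292 CPM in the controls and 282, 358 and 287 CPM in HopCA, which overlap. Of the 17 tested Cyp4 genes, 11 had log2 fold changes below 0 (median -0.42). The Cyp12 sum was 168, 132, 158 and 146 CPM in the controls and 70.3, 83.9 and 70.7 CPM in HopCA, with every HopCA library below. On the group means this sum went from 151 to 75.0 CPM, and Cyp12e1 alone from 107 to 56.1 CPM. The Cyp9 sum was lower without overlap as well, at 208 to 237 CPM in the controls and 155 to 183 CPM in HopCA. On the means it went from 227 to 172 CPM, and Cyp9f2 alone from 137 to 84.7 CPM, with 4 of the 6 Cyp9 genes not called. The Cyp6 sums overlapped at 262 to 356 CPM and 224 to 273 CPM. The sum over other families was also lower without overlap, at 628 ± 58.0 CPM (SD, n = 4) in the controls and 443 ± 10.7 CPM (SD, n = 3) in HopCA. Cyp28 sums overlapped, at 358 ± 132 CPM in the controls and 310 ± 52.0 CPM in HopCA.

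**Figure D2:**
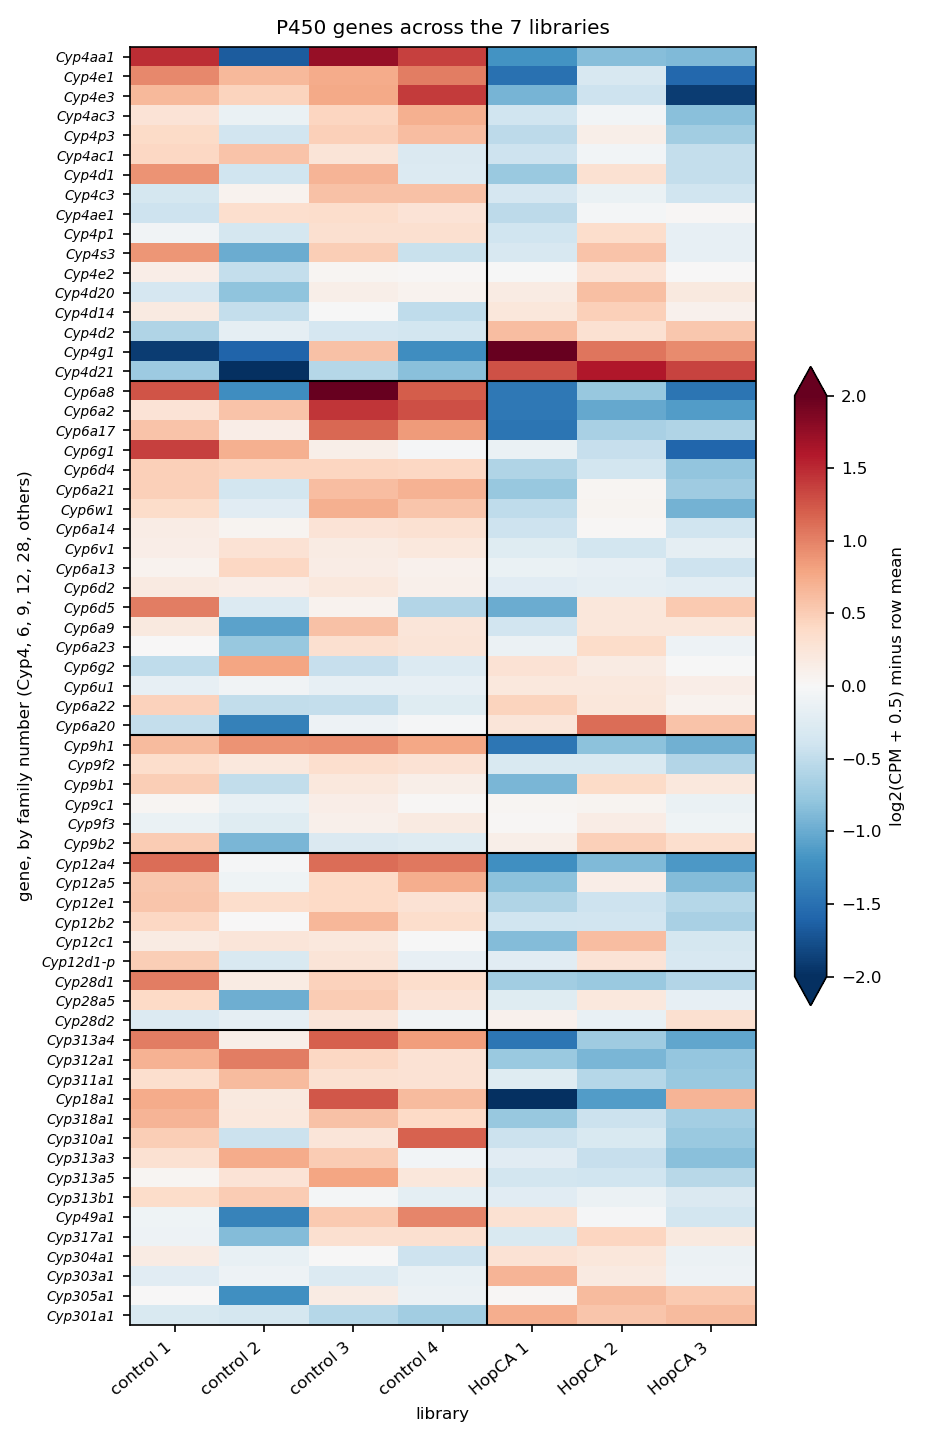
Expression of the 65 tested P450 genes (rows, by family number) in the 7 libraries (columns), as log2(CPM + 0.5) minus the gene's mean over libraries. Blue runs through much of the HopCA side in the Cyp12 block, and control 2 is paler or bluer than the other controls for many genes.

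The Cyp4 family, whose members are known mainly as fatty acid hydroxylases, held 3 of the 5 risers. Cyp4d21, on 2L from 7605600 to 7607701 in dm6, is also known as sxe1, a gene of the adult head with male-biased expression that is tied to mating. It read 18.9, 6.96, 21.2 and 17.6 CPM in the controls and 77.3, 97.1 and 81.7 CPM in HopCA. All HopCA libraries lay above all controls, and the log2 fold change was 2.41 ± 0.337 (adjusted p = 0.00302). Reads across its exon junctions numbered 37, 15, 47 and 37 in the controls and 154, 213 and 191 in HopCA, the same order of groups. Without control 2, its lowest library, the log2 fold change was 2.15 (adjusted p = 2.09e-04).

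Cyp4g1, on X from 467057 to 469335, makes the last step of cuticular hydrocarbon synthesis in the oenocytes, cells that lie under the epidermis. It read 12.5, 15.3, 71.5 and 19.9 CPM in the controls and 213, 101 and 92.1 CPM in HopCA. The groups did not overlap, but control 3 and HopCA 1 each lay far above the rest of their group. The log2 fold change was 2.19 ± 0.666 with an adjusted p of 0.0442, and the call was lost when any library other than control 3 was left out (adjusted p = 0.0736 to 0.137). Without control 3 the log2 fold change was 3.08 and the call was kept (adjusted p = 0.00611).

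Further measurements stand beside that of Cyp4g1. It is a single-exon gene inside CG32816 with no uniquely assigned read, and CG32816 itself rose by 0.45 on the log2 scale (adjusted p = 0.0483). The oenocyte markers FASN3, a fatty acid synthase, and FarO, a fatty acyl-CoA reductase, had higher means in HopCA and did not pass the test. FASN3 read 9.39, 21.0, 32.4 and 6.71 CPM in the controls and 52.6, 27.5 and 39.0 CPM in HopCA (log2 fold change 1.20, adjusted p = 0.126). FarO read 1.503, 1.58, 3.45 and 0.680 CPM in the controls and 5.13, 2.99 and 4.34 CPM in HopCA (1.21, adjusted p = 0.0888, and 0.0234 without control 3). Both were highest in control 3 among the controls and in HopCA 1 among the HopCA libraries, as Cyp4g1 was. Of the 7 oenocyte markers 5 were tested, none was called higher and 1, svp, was called lower. Their sums, 889 to 1251 CPM in the controls and 1019 to 1189 CPM in HopCA, were almost all bond, which alone read 861 to 1235 CPM. The part of oenocytes in the Cyp4g1 value was not tested.

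Cyp4d2 rose at a lower level, from 5.85, 8.01, 7.14 and 6.95 CPM in the controls to 14.2, 11.4 and 13.5 CPM in HopCA (log2 fold change 0.90 ± 0.136, adjusted p = 0.00300). It lies within the annotated span of the RNA gene CR44690, and only 4.3% of its reads were unique to it. Its relative Cyp4d20, in which HopCA again lay above all controls, was not called (0.53 on the log2 scale, adjusted p = 0.118). Cyp4d20 lies inside Svil, and 9.2% of its reads were unique to it.

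The 2 Cyp4 genes called lower were the sisters Cyp4e1 and Cyp4e3. Cyp4e1 read 9.12, 7.29, 7.79 and 9.62 CPM in the controls and 1.27, 3.47 and 1.16 CPM in HopCA, a log2 fold change of -2.11 ± 0.385 (adjusted p = 0.00642). Cyp4e3 read 7.14, 6.14, 7.79 and 12.4 CPM in the controls and 2.06, 3.15 and 0.808 CPM in HopCA (-2.06 ± 0.451, adjusted p = 0.0128). In both, HopCA 2 was the highest HopCA library. Other called genes differed in this: HopCA 2 was highest for some, such as Cyp9h1, Cyp6d4 and Cyp12e1, and lowest for others, such as Cyp312a1 and Cyp6v1. HopCA 2 was also the one with the largest muscle sum in that group. With the muscle markers as a covariate neither Cyp4e1 nor Cyp4e3 was called, at -1.08 (adjusted p = 0.126) for Cyp4e1 and -0.99 (adjusted p = 0.327) for Cyp4e3. Whether muscle had a part in either change was not tested.

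Their sister Cyp4e2, the most expressed of the 3, did not follow. It read 76.4, 49.5, 71.0 and 70.6 CPM in the controls and 69.2, 83.9 and 69.7 CPM in HopCA (log2 fold change 0.15, adjusted p = 0.477). Cyp4aa1 had a larger fold change than either called sister and missed the threshold (-2.49 ± 0.839, adjusted p = 0.0610). Its controls read 9.82, 0.672, 11.8 and 9.09 CPM and its HopCA libraries 1.11, 1.55 and 1.52 CPM, so that control 2 alone made the groups overlap. Without control 2 it was called lower (-2.88, adjusted p = 4.17e-04).

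**Figure D3:**
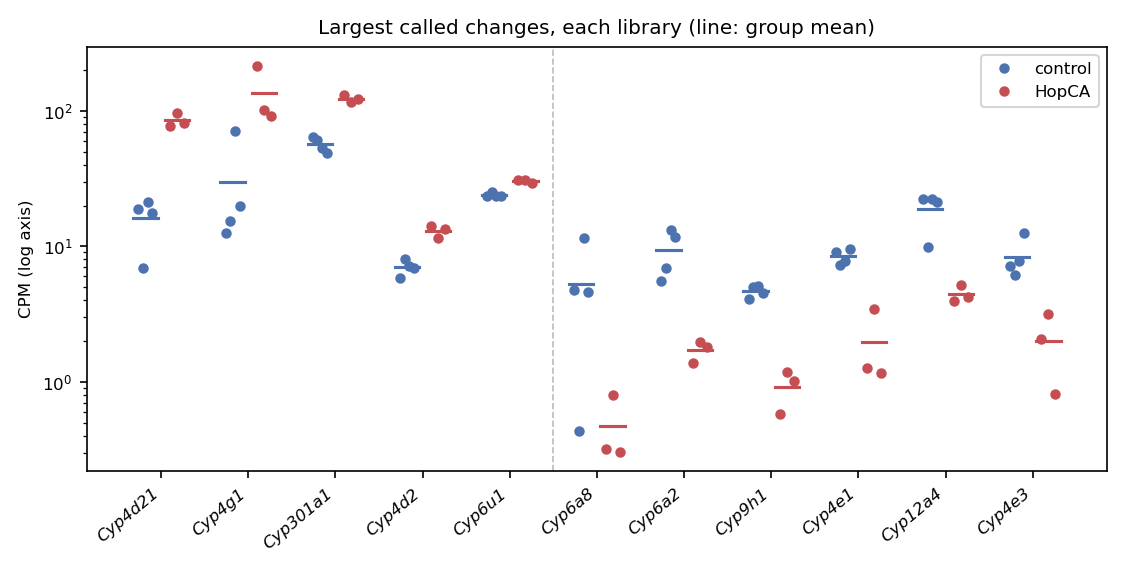
CPM in each library (log axis) for the 5 genes called higher, left of the dashed line, and the 6 called genes of lowest log2 fold change, right of it; points are libraries and short lines are group means. The groups are separate for every gene shown except Cyp6a8, where control 2 lies among the HopCA libraries.

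Cyp6 genes are known above all for the metabolism of foreign compounds. Of 18 tested, 8 were called lower, 1 higher and 9 neither. Cyp6a2, on 2R and long studied in insecticide-resistant strains, read 5.58, 6.96, 13.1 and 11.8 CPM in the controls and 1.38, 1.97 and 1.82 CPM in HopCA. The 2 groups were well apart (log2 fold change -2.44 ± 0.351, adjusted p = 0.00252). It lies inside Epac and only 3.5% of its reads were unique. Cyp6a8, another gene raised in resistant strains, read 4.78, 0.432, 11.4 and 4.62 CPM in the controls and 0.317, 0.8003 and 0.303 CPM in HopCA. Its fold change was the most negative of the called genes (-3.47 ± 1.03, adjusted p = 0.0407), yet the groups overlapped through control 2. The call was kept without control 2 (adjusted p = 0.00389) and lost when any other single library was left out, with an adjusted p of up to 0.133.

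Cyp6a17, known for its part in temperature preference, fell by 1.70 on the log2 scale (adjusted p = 0.00758). It read 11.4, 8.25, 17.3 and 13.9 CPM in the controls and 2.38, 4.59 and 4.75 CPM in HopCA. Cyp6d4 was the tightest of the larger Cyp6 changes, with 36.2, 35.0, 34.8 and 34.4 CPM in the controls and 16.9, 19.9 and 14.8 CPM in HopCA (-1.03 ± 0.103, adjusted p = 6.81e-04). The 4 controls of this gene differed little, and every HopCA library lay well below them.

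The remaining Cyp6 changes were small. Cyp6d2, second to Cyp6a23 among the family by RPKM, read 36.4, 34.9, 37.1 and 34.3 CPM in the controls and 27.3, 28.3 and 27.5 CPM in HopCA (-0.37 ± 0.0646, adjusted p = 0.00552). Cyp6v1 fell by 0.46 on the log2 scale (adjusted p = 0.00447). Cyp6a14 (-0.47, adjusted p = 0.0331) and Cyp6a13 (-0.43, adjusted p = 0.0273) were also called lower, and each lost its call when any 1 of 4 particular libraries was left out. The single riser, Cyp6u1, read 23.6, 25.1, 23.7 and 23.7 CPM in the controls and 30.7, 30.8 and 29.2 CPM in HopCA (0.33 ± 0.0633, adjusted p = 0.00708).

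Several well-known Cyp6 genes were not called. Cyp6g1, the DDT resistance gene, had all HopCA libraries below all controls at 5.22 ± 2.67 CPM (SD, n = 4) and 1.88 ± 1.07 CPM (SD, n = 3), with an adjusted p of 0.0729. Cyp6a20, linked to aggression, lay above the controls in HopCA at 2.13 ± 0.933 and 5.10 ± 1.77 CPM (adjusted p = 0.0508, and 0.0465 without control 2). Cyp6a23 read 50.2, 29.1, 62.1 and 59.7 CPM in the controls and 46.0, 64.5 and 46.4 CPM in HopCA, a log2 fold change of 0.06 (adjusted p = 0.889).

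Neighbouring P450 genes did not all change alike. By gaps of at most 10000 bases, 46 P450 genes stood in 16 tandem runs. The largest run held 9 genes on 2R from 14871366 to 14903095, among them Cyp6a17, Cyp6a23, Cyp6a20 and Cyp6a8. Of its 8 tested genes 2 were called lower and none higher, and their log2 fold changes reached from -3.47 to 1.26. Neighbours also parted in smaller runs: Cyp28d1 fell by 1.58 on the log2 scale while Cyp28d2 was at 0.18 and not called, and Cyp4e1 fell beside Cyp4e2. Other neighbours were called lower together, namely Cyp311a1 with Cyp318a1, Cyp313a5 with Cyp313a3, and Cyp6a14 with Cyp6a13.

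**Figure D4:**
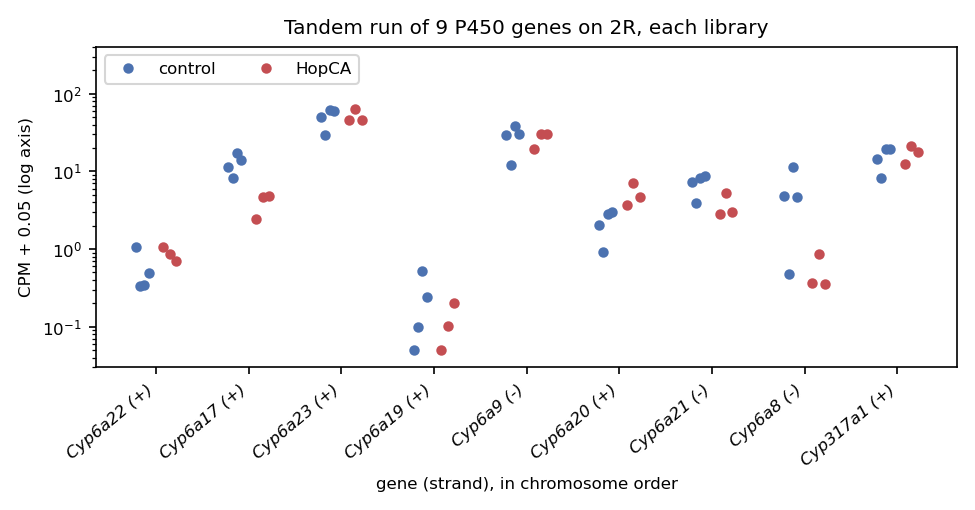
CPM + 0.05 in each library (log axis) for the 9 P450 genes of the largest tandem run, in chromosome order with their strand; blue points are controls and red points HopCA. Cyp6a17 is lower and Cyp6a20 higher in every HopCA library, while Cyp6a23 and Cyp317a1 overlap.

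All 6 Cyp9 genes could be tested, and 2 were called, both lower. Cyp9f2, the second most expressed P450, read 142, 129, 141 and 136 CPM in the controls and 90.0, 90.3 and 73.8 CPM in HopCA, a log2 fold change of -0.69 ± 0.0917 (adjusted p = 0.00178). Cyp9h1 was a minor transcript with a large change, at 4.08, 4.99, 5.06 and 4.52 CPM in the controls and 0.582, 1.17 and 1.01 CPM in HopCA (-2.33 ± 0.274, adjusted p = 0.00120). In both genes the spread within either group was small against the gap. Cyp28d1 fell from 2.77 to 0.921 CPM on the means (-1.58, adjusted p = 0.00784) and was the only Cyp28 gene called.

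The mitochondrial P450s changed in opposite directions. All 6 tested Cyp12 genes had log2 fold changes below 0, with a median of -0.91, and 3 were called lower. Cyp12e1, the third P450 by RPKM, read 119, 103, 107 and 99.6 CPM in the controls and 53.1, 60.7 and 54.4 CPM in HopCA (-0.93 ± 0.0890, adjusted p = 5.89e-04). Cyp12a4, on 3R from 19135158 to 19137136 and known for lufenuron resistance, read 22.4, 9.88, 22.2 and 21.3 CPM in the controls and 3.97, 5.18 and 4.24 CPM in HopCA (-2.08 ± 0.306, adjusted p = 0.00304). Both were separate between groups, Cyp12a4 even with its low control 2. Cyp12b2 read 17.7, 13.2, 21.1 and 16.9 CPM in the controls and 9.79, 9.92 and 8.18 CPM in HopCA (-0.89, adjusted p = 0.00641).

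Cyp301a1, also mitochondrial and known for its part in forming the adult cuticle, rose. It lies on 2R from 12566185 to 12569061 and read 63.8, 61.2, 53.0 and 48.6 CPM in the controls and 131, 116 and 121 CPM in HopCA. Its log2 fold change was 1.11 ± 0.108 with an adjusted p of 6.18e-04, and junction reads went from 117 to 170 in the controls to 293 to 360 in HopCA. On the RPKM scale its level went from 28.8 to 62.1 on the group means, above that of Cyp12e1 in HopCA, which went from 65.1 to 33.8. The total over the 9 mitochondrial genes with Cyp names overlapped between groups, at 210 ± 17.7 CPM (SD, n = 4) in the controls and 199 ± 5.24 CPM (SD, n = 3) in HopCA.

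Among the other families, Cyp312a1 and Cyp318a1 were the largest losses by CPM, and no role is given here for either. Cyp312a1 read 139, 175, 114 and 104 CPM in the controls and 51.0, 45.0 and 49.95 CPM in HopCA (-1.45 ± 0.182, adjusted p = 0.00152). Cyp318a1 read 131, 94.5, 123 and 107 CPM in the controls and 48.0, 60.2 and 50.9 CPM in HopCA (-1.10 ± 0.136, adjusted p = 0.00141). The groups did not overlap for either gene, and both calls were kept whichever library was left out. Cyp311a1, the neighbour of Cyp318a1 on X, fell from 1.93 to 0.804 CPM (-1.26, adjusted p = 0.0139).

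The Cyp313 family has 6 genes, of which 4 were tested and 3 were called lower. Cyp313a4 fell most, from 48.8, 25.6, 54.8 and 42.8 CPM in the controls to 8.36, 14.3 and 11.3 CPM in HopCA (-1.93 ± 0.297, adjusted p = 0.00398). Cyp313a3 (-0.91, adjusted p = 0.0176) and Cyp313a5 (-0.81, adjusted p = 0.0122) fell less, and both calls, like that of Cyp311a1, were lost without HopCA 3. Cyp313b1, the most expressed of the family, read 138, 152, 103 and 92.9 CPM in the controls and 91.6, 98.3 and 87.6 CPM in HopCA and was not called (-0.40, adjusted p = 0.118, and 0.0434 without control 4). Its HopCA values fell within the lower part of the control range or just under it.

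The CYP2 clan includes genes with roles in hormone breakdown and sense-organ development. Its 4 genes with Cyp names were all tested and none was called. Cyp18a1, which inactivates ecdysteroids, differed widely within HopCA. It read 19.3, 13.0, 27.3 and 17.7 CPM in the controls and 1.798, 4.91 and 18.3 CPM in HopCA (-1.21 ± 0.690, adjusted p = 0.223), so HopCA 3 lay among the controls and HopCA 1 and 2 lay below them. Without HopCA 3 it was called lower (-2.52, adjusted p = 0.0210). Cyp303a1, needed for external sensory organs, was at 0.59 (adjusted p = 0.134) and Cyp305a1 at 0.64 (adjusted p = 0.180) on the log2 scale.

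P450s of ecdysone synthesis carry other names, the Halloween genes, and act mostly in the ring gland. Of 6 listed, 5 were tested, and phm alone was called, lower. It read 0.483, 24.1, 2.02 and 1.90 CPM in the controls and 0.159, 0.160 and 0.101 CPM in HopCA (-5.62, adjusted p = 0.0465). Control 2 carried most of the reads: without it phm fell below the count filter and was not tested, and without any 1 HopCA library the call was lost (adjusted p = 0.125 to 0.139). Control 2 was also highest for spok, at 35.8 CPM against 0.805 to 4.03 CPM in the other controls, and for sad, at 29.3 against 5.93 to 7.73 CPM. With control 2, spok had a log2 fold change of -3.89 (adjusted p = 0.0691) and without it one of -1.93 (adjusted p = 0.0481). For sad the values were -1.09 (adjusted p = 0.244) and -0.20 (adjusted p = 0.618). The 8 ring gland markers, which include these genes, summed to 136 CPM in control 2 and to 29.5 to 44.2 CPM in the other libraries, and their part in these values was not tested. The enzyme shd, which turns ecdysone into the active hormone in peripheral tissues, had a log2 fold change of 0.16 (adjusted p = 0.493). Of 6 other ecdysone synthesis genes, ecd was called higher (0.28, adjusted p = 0.0452, lost without any 1 of 5 libraries) and Npc1a, which moves sterols within the cell, lower (-0.52, adjusted p = 0.00407).

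The electron donor of the microsomal P450s rose while most called P450s fell. Cpr read 175, 131, 191 and 180 CPM in the controls and 280, 338 and 309 CPM in HopCA (0.87 ± 0.137, adjusted p = 0.00350), with no overlap. Among 15 genes of electron transfer and heme supply 2 were called higher and 2 lower, with a median of 0.11. Of all tested genes, 16.4% were called higher and 15.1% lower, so these counts do not set the list apart. FeCH, which puts iron into heme, was called higher (0.33, adjusted p = 0.0230). Pbgs, an early enzyme of heme synthesis, was called lower (-0.33, adjusted p = 0.0400), as was the heme oxygenase Ho (-0.42, adjusted p = 0.0205). FeCH and Pbgs each lost the call without any 1 of 4 libraries and Ho without any 1 of the 3 HopCA libraries, with adjusted p up to 0.148. Cytochrome b5, a second donor for some P450s, had a log2 fold change of 0.16 (adjusted p = 0.282).

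Of 10 regulators linked to the response to foreign compounds 4 were called higher and 1 lower, with a median of 0.19. The shares over all tested genes were 16.4% higher and 15.1% lower, and a list of 10 is too short to set against them. maf-S, the small Maf partner of the oxidative stress factor cnc, read 16.5, 16.1, 15.1 and 15.5 CPM in the controls and 31.8, 28.6 and 29.6 CPM in HopCA (0.93 ± 0.0728, adjusted p = 3.17e-04). The 2 groups were far apart against their spread. cnc itself had a log2 fold change of 0.27 (adjusted p = 0.0968, and 0.0403 without control 2) and its inhibitor Keap1 one of 0.03 (adjusted p = 0.870). tgo, the partner of PAS-domain factors, rose by 0.44 on the log2 scale (adjusted p = 0.00757). The nuclear receptor Hr96 rose by 0.30 (adjusted p = 0.0215) and usp, the partner of the ecdysone receptor, by 0.24 (adjusted p = 0.0440). Hr38 fell by 0.83 (adjusted p = 0.00757). The call of usp was lost without any 1 of 6 libraries and that of Hr96 without HopCA 2 or HopCA 3 (adjusted p up to 0.140), while those of maf-S, tgo and Hr38 were kept whichever library was left out.

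**Figure D5:**
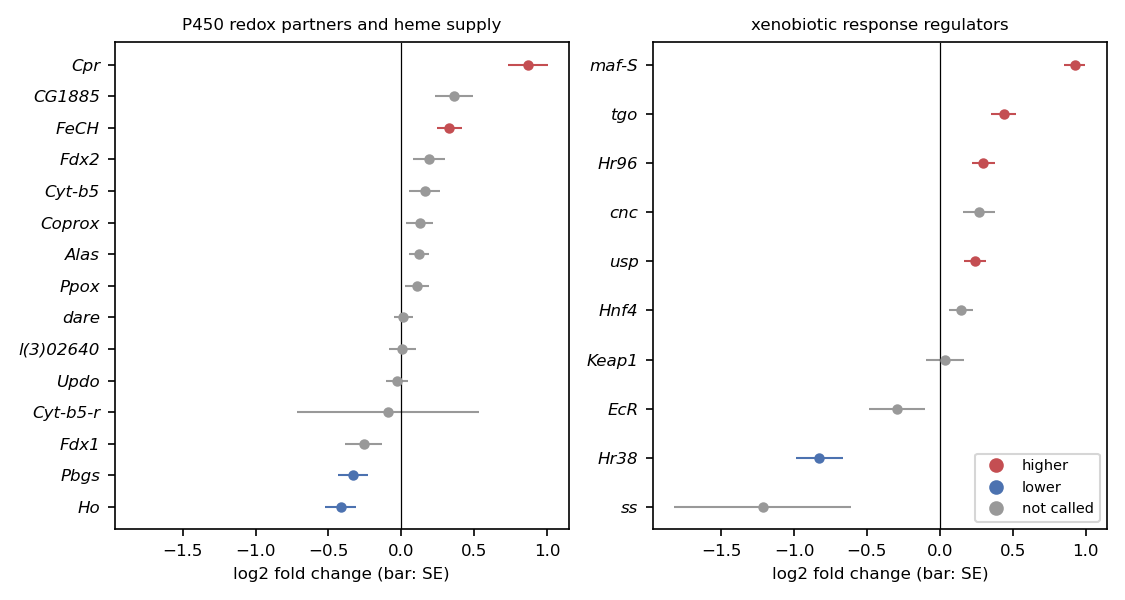
Log2 fold change of HopCA over control with bars of 1 SE for 15 redox partner and heme genes (left) and 10 regulators (right); red was called higher, blue lower and grey neither. Cpr and maf-S have the highest values of their panels, at 0.87 and 0.93.

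Gene position also bears on how well the reads identify a P450. Of the 85 genes 19 lie entirely within another gene. Among the 61 P450s with at least 100 reads in all libraries together, the 12 nested ones had a median of 10.3% unique reads and the 49 others a median of 100%. A fit on unique reads alone could not test the nested called genes Cyp6a2, Cyp4g1 and Cyp4d2, and the other 24 called genes were called again. Called P450s had at most 6.9% of their reads in introns, the share of Cyp4d2. Cyp1, the cyclophilin set apart at the start, read 1426 ± 142 CPM in the controls and 1560 ± 62.3 CPM in HopCA and was not called (0.13, adjusted p = 0.331).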

How the data were processed

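The authors deposited 1 gene table per library with raw whole-number read counts and RPKM, per the file headers; the poly(A) RNA went through a stranded kit, per the labels' protocols. The submitters' processing notes name cutadapt 1.8.1 and dm6. For the aligner, the counter and the use of strand, the sources used here state nothing, and counts of nested, overlapping and near-identical genes are therefore uncertain. The deposited RPKM (reads scaled by exon length and library total) served only to compare levels between genes.

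Total gene reads of 17697 named genes (1 unnamed entry per table was left out) were fitted with edgeR 4.0.16 in R 4.3.3: filterByExpr (minimum count 10, minimum total 15) left 9457 genes, scaled by TMM and tested by robust quasi-likelihood with group as the only term. Genes were called at a Benjamini-Hochberg adjusted p under 0.05. Named genes were all called P450s; values per library are given for the 6 highest and 6 lowest called (mean log2 CPM of at least 1; 5 were called higher), the 2 of highest RPKM per family group, and others chosen after their values were seen. The members and lists were chosen with earlier results of these data known. On simulated counts for this comparison (9457 genes, 200 changed) the fit recovered 23.9% of 67 genes changed 1.5-fold, 70.1% of 67 changed 2-fold and 87.9% of 66 changed 4-fold, with 6 false calls. No 2 libraries of a group matched within sampling noise (lowest chi-square per degree of freedom 20.6). Nested genes were found from the gene positions in the deposited tables, which equal those of the Ensembl BDGP6 annotation for 84 of the 85 P450s. Alternatives were DESeq2 1.42.0, other scalings, filters and read types, marker covariates, a replicate block and leaving out libraries.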

Additional observations from a re-analysis of the deposited data

Results flagged for a closer look

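Among 63 items screened (the named P450s, related genes and the P450 sums), 9 had 1 control library farther from the other 3 than Dixon's 95% critical value for the gap over the range. Chance alone flags about 1 group in 20, and 7 of the 9 came from control 2.

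Control 2 was the highest control for the ring gland P450s phm (24.1 CPM, the others 0.483 to 2.02), spok (35.8 CPM, the others 0.805 to 4.03) and sad (29.3 CPM, the others 5.93 to 7.73). It was also highest for ecd (28.5 CPM, the others 25.2 to 25.6), Cyp6u1 (25.1 CPM, the others 23.6 to 23.7) and Cyp311a1 (2.35 CPM, the others 1.75 to 1.83). It was the lowest control for Cyp12a4 (9.88 CPM, the others 21.3 to 22.4). Control 3 was the highest control for Cyp4g1 (71.5 CPM, the others 12.5 to 19.9) and for Cyp313a2 (7.497 CPM, the others 0 to 0.0486).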

How the results depend on the processing

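Counts of called P450s (5 higher, 22 lower) stayed within 1.5 times under DESeq2 (6 and 29), other scalings, other filters, exon or unique reads and a threshold of 0.01 (4 and 15). Leaving out 1 library gave 4 to 6 higher and 17 to 27 lower, and 20 of the 27 called genes were called in all 7 of these fits. With the muscle marker score as a covariate 5 were called lower and the median log2 fold change of the tested P450s was 0.021. Cyp9c1 (0.092) and Cyp28a5 (0.559) changed sign. The score itself differed between groups, so the fit cannot tell it apart from group, and the cause was not tested. The fat body markers as a covariate, chosen after seeing the data, left 5 higher and 21 lower. With a replicate block (over the numbers in the labels) 1 was called higher and 10 lower; same-numbered libraries did not deviate together (correlations -0.223, -0.432 and -0.0694), so nothing shows that the numbers pair them. Of the related lists 12 genes were called, 5 at a threshold of 0.01, 2 with the muscle covariate, 4 with the block, 5 without control 2 and HopCA 1 together, and 6 to 12 when 1 library was left out. Values near 0 changed sign elsewhere: Cyp9c1 with unique reads (0.115), without HopCA 3 (0.035) and without control 3 (0.003), and Cyp6a23 without HopCA 2 (-0.12), without control 2 (-0.135) and without control 2 and HopCA 1 together (-0.048). With 1 library left out, Cyp9c1 ranged from -0.081 to 0.035 and Cyp6a23 from -0.135 to 0.165. Other scalings moved the all-gene median to -0.013 and -0.015. Low counts in most libraries limit the 20 P450s that were not tested. In simulation most 1.5-fold changes were missed. That simulation changed 200 of 9457 genes, where 2978 were called in the data, so its recovery need not hold here.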
